A study of Mus musculus with 4 samples.

Results

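The genes described here were insulin-like growth factor 1 (Igf1), its receptor (Igf1r) and the IGF binding proteins Igfbp2, Igfbp3, Igfbp4, Igfbp5, Igfbp6 and Igfbp7, chosen by symbol, which gave 8 of the 28006 features in the count matrices. They were measured by droplet single-cell RNA-seq in tdTomato+ cells sorted from mouse femurs. The mice carried Cxcl12-iCreER; R26R(tdTomato/+), in which tamoxifen switches on tdTomato in cells where the promoter of Cxcl12 drives the recombinase from a bacterial artificial chromosome transgene, so that all libraries shared the same label and the same tamoxifen pulse. The pulse came 7 days before the marrow of the right femur was ablated through the knee with an endodontic instrument, and cells were taken 7 days after ablation from the ablated femur (ABL) and from the untreated left femur (CONT). The distal growth plates were removed before digestion, and the age of the mice at the pulse was not given for these libraries. Each condition had 2 libraries. Replicate 1 was pooled from several mice and made with version 2 of the Chromium chemistry, and replicate 2 was made with version 3.

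IGF1 is a secreted peptide that acts through a receptor tyrosine kinase, the product of Igf1r, and it is made in bone by cells of the mesenchymal lineage and by macrophages as well as reaching bone from the blood. The IGF binding proteins hold IGFs in the extracellular space, where proteases such as PAPP-A release the ligand, and they differ in their affinity for IGFs and in their binding to matrix. Growth hormone, acting through its receptor and STAT5, is the known inducer of Igf1 transcription, while Igfbp7 is a distant relative with low affinity for IGFs.

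The libraries held 1459 to 3433 called cells with a median of 5714 to 12895.5 unique molecular identifiers (UMIs, each standing for 1 captured transcript) per cell. Mesenchymal cells numbered 1314 (CONT) and 692 (ABL) in replicate 1, and 2053 (CONT) and 1808 (ABL) in replicate 2. Reticular-like cells, the marrow stromal cells that make Cxcl12, numbered 1137, 389, 1968 and 347 in the same order. The class was named from markers that included Cxcl12, Adipoq and Lepr, so the levels of these genes describe it and do not test its name. Cxcl12 stood at 14100 to 17270 counts per 1000000 UMIs of the summed cells (CPM). Adipoq stood at 1890 to 2247 CPM and Lepr at 609 to 2193 CPM, with tdTomato transcripts at 1105 to 2103 CPM. ABL replicate 2 held 588 periosteal-like and fibroblast-like cells where the other libraries held 8 to 29, and endothelial-like cells were 0 of ABL replicate 1. An Xist UMI was found in 49.9% and 81.4% of the mesenchymal cells of CONT and ABL replicate 1 and in 71.9% of those of CONT replicate 2, but in 0.0553% of those of ABL replicate 2, in which 70.5% had a UMI of a Y-linked gene, which did not match the CONT library of the same replicate. CONT and ABL libraries shared 5 cell barcodes in replicate 1 and 1 in replicate 2, where random draws would share 6.79 and 0.898.

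In reticular cells 1 of the binding protein genes, Igfbp3, was called lower after ablation, and 1 other, Igfbp2, was called higher on 33 UMIs of 7 cells in 1 library. Of all 11340 genes tested, 2.5% were called higher and 2.22% lower, and 0 were called when the fit ignored the replicate. Igfbp3, which codes for the main carrier of IGFs in serum, differed by -1.38 log2 units in ABL. Igfbp4 was higher and Igfbp5 lower in ABL in both replicates by ratios of up to 2.74 and 2.88, but neither passed the test over all genes. The CPM values of the 2 conditions did not overlap for these 2 genes, nor for 28.3% of all genes tested. Igf1 and Igfbp7 differed in opposite directions in the 2 replicates, and Igf1r differed little. The promoters of the 3 binding protein genes with the largest counts and a shared direction in both replicates are given here, as the 250 bases before each RefSeq start on GRCm38.p6, 5′ to 3′ on the strand of the gene. Capitals mark matches to TATANA, a short form of the TATA box letters, on either strand. Igfbp3 lies at chr11:7213924-7214173 on the minus strand, Igfbp4 at chr11:99040994-99041243 on the plus strand and Igfbp5 at chr1:72874866-72875115 on the minus strand.
Igfbp3: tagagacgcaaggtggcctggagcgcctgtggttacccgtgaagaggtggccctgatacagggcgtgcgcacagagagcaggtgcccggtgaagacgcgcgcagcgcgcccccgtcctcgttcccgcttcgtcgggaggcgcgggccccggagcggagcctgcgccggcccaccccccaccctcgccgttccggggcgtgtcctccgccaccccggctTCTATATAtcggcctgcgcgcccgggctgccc
Igfbp4: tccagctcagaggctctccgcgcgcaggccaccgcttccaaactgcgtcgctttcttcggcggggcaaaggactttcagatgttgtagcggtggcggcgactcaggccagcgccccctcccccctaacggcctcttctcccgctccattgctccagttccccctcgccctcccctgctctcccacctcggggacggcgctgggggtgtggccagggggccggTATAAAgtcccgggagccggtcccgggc
Igfbp5: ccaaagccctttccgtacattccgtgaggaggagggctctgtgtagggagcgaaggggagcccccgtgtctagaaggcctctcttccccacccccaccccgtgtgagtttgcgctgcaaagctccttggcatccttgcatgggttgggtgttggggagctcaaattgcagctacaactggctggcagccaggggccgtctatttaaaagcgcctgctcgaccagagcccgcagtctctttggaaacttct
The Igfbp3 window held 2 overlapping matches within the 8 letters in capitals, the nearer beginning 30 bases before the start, and the Igfbp4 window held 1 match 28 bases before the start. The Igfbp5 window had no match to TATANA, a form that does not cover all TATA-like letters. That window does hold the letters tatttaaa, which TATANA leaves out. Of all 32851 mouse promoter windows of this length, 22.6% held TATANA. The G and C share of the windows was 73.2% for Igfbp3, 69.2% for Igfbp4 and 58.8% for Igfbp5. On either strand, CCAAT was in 33.8% of all windows and in none of these 3. The GC box letters GGGCGG were in 32.7% of all windows and in none of these. The STAT5-type letters TTCNNNGAA were in 7.02% of all windows and likewise in none of the 3. Such matches describe the letters of the windows and were not tested as binding sites.

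The genes themselves, in the GRCm38 annotation, lie on separate chromosomes apart from 2 pairs. Igfbp3 spans chr11:7206086-7213923 on the minus strand and Igfbp4 chr11:99041244-99054392 on the plus strand of the same chromosome. Igfbp2, at chr1:72824503-72852474 on the plus strand, and Igfbp5, at chr1:72857932-72874884 on the minus strand, are neighbours with their 3′ ends 5457 bases apart. Igf1 spans chr10:87858265-87937042 on the plus strand, Igf1r chr7:67952827-68233668 on the plus strand, Igfbp6 chr15:102144362-102149511 on the plus strand and Igfbp7 chr5:77349240-77408041 on the minus strand. Polr2b overlaps Igfbp7 on the other strand, with 73 to 718 reticular UMIs per library, and Igf1os overlaps Igf1, with 9 UMIs in CONT replicate 2 and 0 in the others. The strand setting of the counting was not given in the sources used here, so reads of these overlapping pairs are uncertain.

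The first question was which cells held each transcript. Igf1 had its highest median in the periosteal-like and fibroblast-like cells, at 160 CPM in ABL replicate 1 (11 cells), 2391 CPM in CONT replicate 2 (29 cells) and 1561 CPM in ABL replicate 2 (588 cells), and the first of these lay under the reticular values. Reticular cells held 205 to 528 CPM of Igf1 with a median of 378 CPM. Monocyte-like and macrophage-like cells held 464 CPM (CONT) and 301 CPM (ABL) in replicate 1 and 199 CPM in ABL replicate 2, and pre-osteoblast-like cells, named in replicate 1 alone, held 313 CPM in CONT and 215 CPM in ABL. The ranges of these 4 classes overlapped, so they had no order beyond their spread, while the osteoblast-like cells of ABL replicate 1 held 29.0 CPM.

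**Figure D1:**
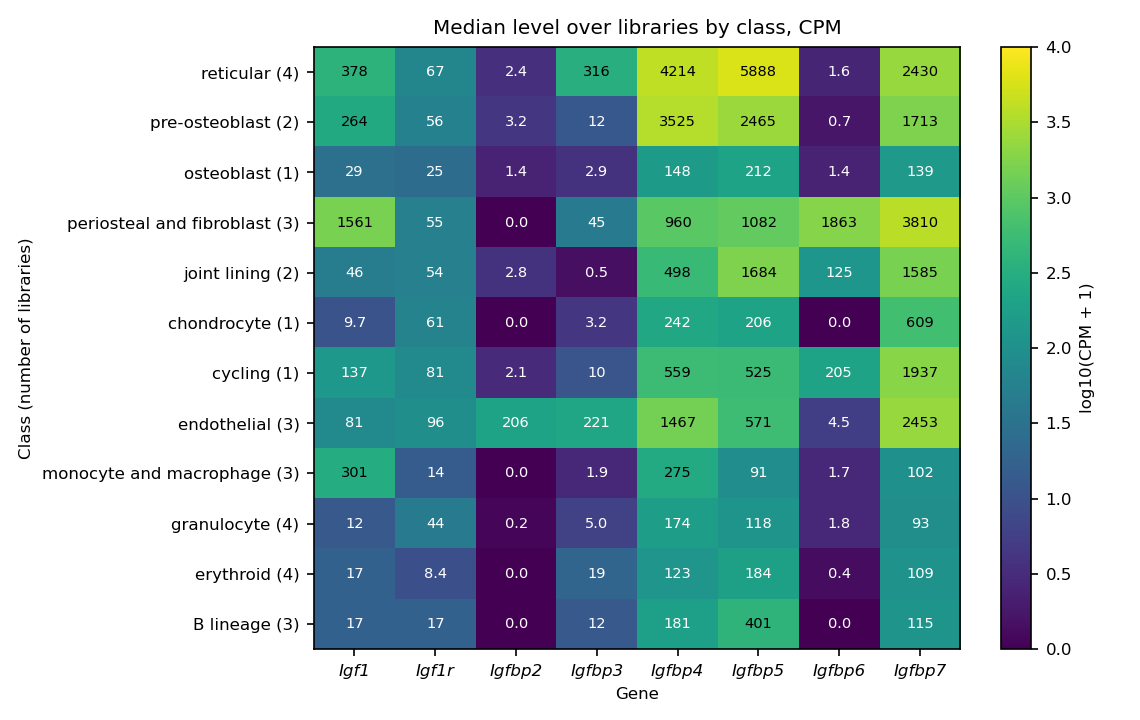
Median CPM over libraries of the 8 genes (columns) in 12 cell classes (rows), using libraries with at least 10 cells of the class and a colour scale of log10(CPM + 1). Reticular cells held the highest medians of Igfbp3, Igfbp4 and Igfbp5 (316, 4214 and 5888 CPM), periosteal-like and fibroblast-like cells those of Igf1 and Igfbp6 (1561 and 1863 CPM), and endothelial-like cells that of Igfbp2 (206 CPM).

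Igf1r reached at most 127 CPM in any class. Periosteal-like and fibroblast-like cells held 43.6 CPM of Igf1r in ABL replicate 1, on 3 UMIs, and 127 CPM (CONT) and 55.0 CPM (ABL) in replicate 2. Endothelial-like cells held 49.3 to 98.1 CPM and reticular cells 65.3 to 76.4 CPM, so the ranges of these 3 classes overlapped. Osteoblast-like cells of ABL replicate 1 stood at 24.6 CPM and monocyte-like and macrophage-like cells at 9.01 to 15.7 CPM, all under the reticular range. Granulocyte-like cells held 32.15 to 104.1 CPM, which overlapped the reticular range.

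The binding proteins fell into different cells. Igfbp2, whose product is a circulating carrier, was found mainly in endothelial cells. The endothelial-like cells held 229 CPM in CONT replicate 1, 206 CPM in CONT replicate 2 and 178 CPM in ABL replicate 2, against 1.07 to 11.95 CPM in reticular cells, with no overlap. In ABL replicate 1, which had no endothelial-like class, 16 cells of an unnamed cluster held 227 CPM of Igfbp2. That cluster scored as reticular but was left unnamed because endothelial genes, among them Cldn5, Plvap and Cdh5, led it. Igfbp3 was found in reticular cells at 109 to 582 CPM and in endothelial-like cells at 94.1 to 295 CPM, and these ranges overlapped. Pre-osteoblast-like cells held 17.8 CPM of Igfbp3 in CONT and 5.88 CPM in ABL, both under the reticular range.

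Igfbp4 and Igfbp5, whose products are inhibitory and matrix-bound carriers made in quantity by bone cells, had their highest medians in reticular cells, at 4214 CPM for Igfbp4 and 5888 CPM for Igfbp5. In pre-osteoblast-like cells of replicate 1 Igfbp4 stood at 4479 CPM in CONT, above the 3030 CPM of reticular cells in that library, and at 2572 CPM in ABL, under their 5399 CPM, so the order of these classes differed between the libraries. It stood at 148 CPM in the osteoblast-like cells of ABL replicate 1. For Igfbp5 the pre-osteoblast-like values were 3331 CPM in CONT and 1599 CPM in ABL, both under the lowest reticular library, and the osteoblast-like value was 212 CPM. Joint-lining-like cells of ABL replicate 2 (187 cells) held 3224 CPM of Igfbp5, whereas the 10 such cells of CONT replicate 2 held 143 CPM. Both genes were thus lower in the osteoblast-like cells than in the pre-osteoblast-like and reticular cells of the same library.

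Igfbp6, which prefers IGF2 as a ligand, was highest in the periosteal-like and fibroblast-like cells, at 2356 CPM in ABL replicate 1 and, in replicate 2, 222 CPM (CONT) and 1863 CPM (ABL). An unnamed mesenchymal cluster of ABL replicate 2 held 1010 CPM, while reticular cells held at most 4.71 CPM of Igfbp6. Igfbp7 was present in most stromal classes, with 1871 to 3835 CPM in periosteal-like and fibroblast-like cells, 1226 to 2830 CPM in endothelial-like cells and 1488 to 3654 CPM in reticular cells. Its ranges overlapped between these classes, and the same unnamed cluster of ABL replicate 2 held 4539 CPM. All class levels are descriptions without a test, since the classes were drawn from the same cells, although the members themselves were left out of the clustering.

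The main comparison asked how the members differed between reticular cells of ablated and contralateral femurs. Cells were summed per library, and ABL was tested against CONT with the replicate as a block by the edgeR quasi-likelihood F test with Benjamini-Hochberg adjustment over the 11340 genes tested. At an adjusted p under 0.05, 535 genes or 4.72% were called, 2.5% higher and 2.22% lower in ABL, with a median log2 fold change of -0.01. Of the 7 members tested 1 was called higher and 1 lower, which is too few genes to read against that background. The 2 CPM values of each condition did not overlap for 6 of the 8 members, where ABL was above CONT for 4 and below for 2. Of all genes tested 28.3% behaved so, 19.3% with ABL higher and 8.98% with ABL lower. Igfbp6, among the 4 members with ABL above, was not among the genes tested, so the member count and this share cover unlike sets. Igfbp2, also among the 4, rests on 8 to 33 UMIs per library. Only 1 residual degree of freedom was left. With the replicate as a block, the p-values measure how far the ABL to CONT difference varied between the 2 replicates, which differ in chemistry. That spread was estimated in part from other genes. In both replicates the CONT and ABL libraries also differed in Xist and Y-linked transcripts, which cannot be told apart from ablation. A Y-linked UMI was in 29.8% (CONT) and 15.75% (ABL) of mesenchymal cells in replicate 1, and in 26.5% and 70.5% in replicate 2. Without the block edgeR called 0 genes in reticular cells, with 328 at an unadjusted p under 0.05.

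Igf1 transcripts of reticular cells stood at 205 CPM (CONT) and 351 CPM (ABL) in replicate 1, and 528 CPM (CONT) and 406 CPM (ABL) in replicate 2. The ligand was therefore higher in ABL in replicate 1 and lower in replicate 2, by 0.78 and -0.38 on the log2 scale, and the groups overlapped. The fitted log2 fold change was 0.10 (SE 0.33, edgeR adjusted p = 0.950). Igf1r stood at 65.3, 67.9, 66.1 and 76.4 CPM in the same order. Its values did not overlap, yet the differences of 0.06 and 0.21 log2 units between the conditions of a replicate were small, and the fitted change was 0.04 (SE 0.23, edgeR adjusted p = 0.976).

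Igfbp3 held 334 CPM (CONT) and 109 CPM (ABL) in replicate 1, and 582 CPM (CONT) and 298 CPM (ABL) in replicate 2. Both CONT libraries were above both ABL libraries, by 3.06 times in replicate 1 and 1.95 times in replicate 2. The fitted log2 fold change was -1.38 (SE 0.33, edgeR adjusted p = 0.00132). Within clusters of reticular cells, Igfbp3 was lower in ABL in 10 of the 11 clusters with at least 10 cells of both conditions. These clusters, 4 of replicate 1 and 7 of replicate 2, divide the same 4 libraries and are not replicates. In the 1 exception, a cluster of replicate 1, Igfbp3 went from 279 to 308 CPM. The call was lost when only cells with a Y-linked UMI and no Xist were kept, at -1.22 log2 units with an edgeR adjusted p of 0.262, a setting that left 44 reticular cells in ABL replicate 1. It was also lost in tdTomato-positive cells (-1.38, edgeR adjusted p = 0.0535), at clustering resolution 1.5 (-1.30, edgeR adjusted p = 0.0892) and without the block (-1.25), with the same direction in each.

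The free RNA estimate differed between conditions in replicate 2 and is given beside this result. From granulocyte and erythroid transcripts together, free RNA was estimated at 8.83% and 10.9% of reticular UMIs in replicate 1 (CONT, then ABL). In replicate 2 it was 0.906% and 11.3%. Of these transcripts, the granulocyte gene S100a8 stood at 47.1 CPM (CONT) and 37.3 CPM (ABL) in reticular cells of replicate 2. The erythroid gene Hbb-bs stood at 147 CPM (CONT) and 1143 CPM (ABL) there. With free RNA subtracted, Igfbp3 differed by -1.34 log2 units (edgeR adjusted p = 0.00177) and Igfbp4 by 1.11 (edgeR adjusted p = 0.269). The reticular cells of ABL also held more transcript of the osteoblast gene Spp1, at 2022 and 2881 CPM against 139 and 172 CPM in CONT, and less Lepr, at 710 and 609 CPM against 1242 and 2193 CPM. The part of these differences in the Igfbp3 result was not tested.

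The other called member was Igfbp2. Reticular cells held 2.10 CPM (CONT) and 2.76 CPM (ABL) in replicate 1, and 1.07 CPM (CONT) and 11.95 CPM (ABL) in replicate 2. These values were made of 12, 8, 28 and 33 UMIs, and in ABL replicate 2 all 33 UMIs came from 7 of 347 cells, with 14 in 1 cell. The fitted log2 fold change was 2.21 (SE 0.57, edgeR adjusted p = 0.00467), while DESeq2 gave 1.96 with an adjusted p of 0.520. ABL replicate 2 decided the value, since the log2 fold change was 0.25 in replicate 1 alone and 3.35 in replicate 2 alone. Endothelial markers summed to 35.6, 22.1, 11.5 and 29.0 CPM in the reticular cells of the same 4 libraries, lower in ABL in replicate 1 and higher in replicate 2, and none of the 7 cells of ABL replicate 2 held more than 1 endothelial UMI. Only 2.88% of all 347 reticular cells of that library held 2 or more, so 7 cells are too few to tell. The part of endothelial transcripts in the Igfbp2 result was not tested.

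Igfbp4 was higher in ABL in every cluster compared but was not called. It held 3030 CPM (CONT) and 5399 CPM (ABL) in replicate 1, and 2175 CPM (CONT) and 5969 CPM (ABL) in replicate 2. Both ABL libraries were above both CONT libraries, by 1.78 times and 2.74 times, and ABL was higher in 11 of the 11 reticular clusters compared. The fitted log2 fold change was 1.05 (SE 0.51, edgeR adjusted p = 0.296), and DESeq2 called it at 1.03 with an adjusted p of 0.0142. Among cells with a Y-linked UMI and no Xist the log2 fold change was 0.48 (edgeR adjusted p = 0.919).

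Igfbp5 was lower in ABL. It held 6830 CPM (CONT) and 4946 CPM (ABL) in replicate 1, and 11840 CPM (CONT) and 4106 CPM (ABL) in replicate 2. CONT exceeded ABL by 1.38 times and 2.88 times, the groups did not overlap, and Igfbp5 was lower in ABL in 10 of 11 clusters, the exception going from 5956 to 6669 CPM in the same cluster of replicate 1 as for Igfbp3. The fitted log2 fold change was -1.10 (SE 0.55, edgeR adjusted p = 0.323), which did not pass the threshold.

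The ratio of Igfbp4 to Igfbp5 UMIs in reticular cells, which does not depend on the total, was 0.444 (CONT) and 1.09 (ABL) in replicate 1, and 0.184 (CONT) and 1.45 (ABL) in replicate 2. Both ABL ratios were above both CONT ratios, a difference that was not tested, and with 2 libraries per condition an exact permutation test cannot go below p = 0.333. Summed over the 6 binding proteins, the share of reticular UMIs differed less, at 1.39%, 1.33%, 1.61% and 1.25% in the same order.

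Igfbp6 was near the counting limit in reticular cells, with 8, 5, 2 and 13 UMIs in CONT and ABL of replicate 1 and then of replicate 2, and it was removed by the filter on low counts. Igfbp7 held 3654, 2804, 1488 and 2056 CPM in that order. It was lower in ABL in replicate 1 and higher in replicate 2, by -0.38 and 0.47 log2 units, and the fitted change was -0.06 (SE 0.47, edgeR adjusted p = 0.981).

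**Figure D2:**
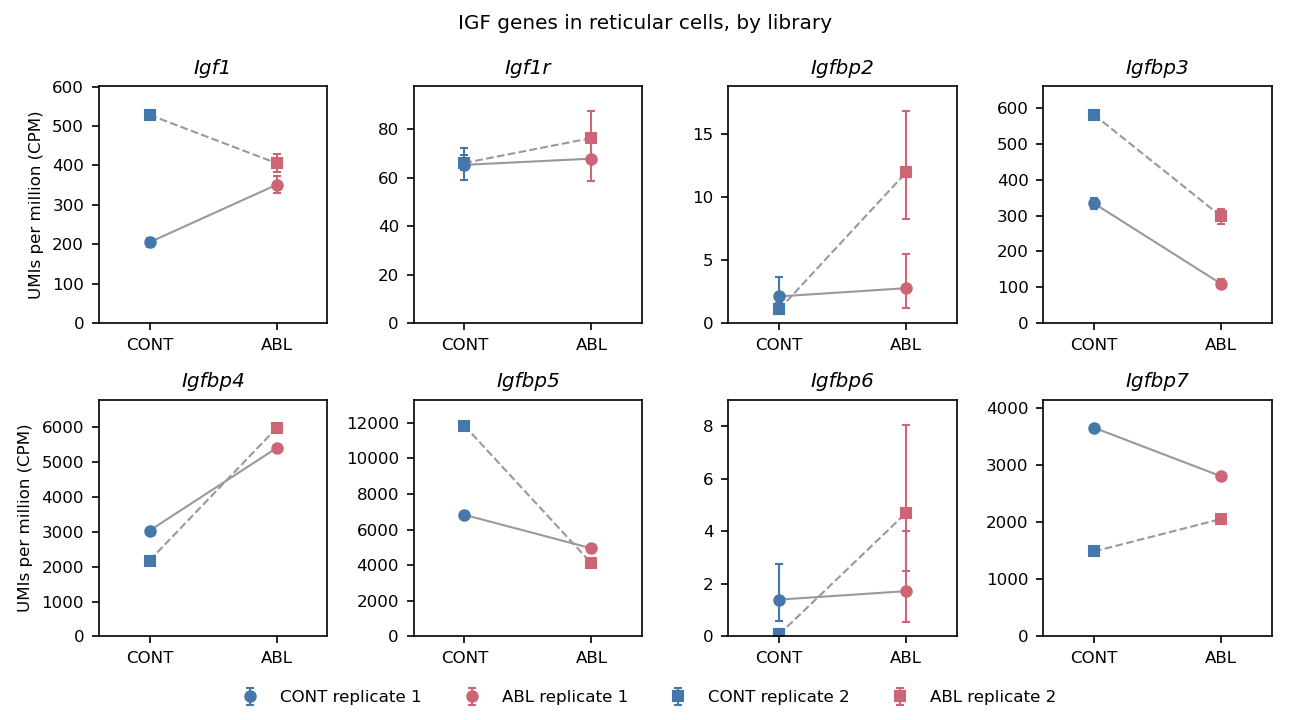
CPM of each of the 8 genes in summed reticular cells of each library, with bars for the 95% exact Poisson interval and lines joining CONT and ABL of a replicate. Igfbp3 is lower in ABL on both lines (334 to 109 and 582 to 298 CPM) and Igfbp4 higher on both (3030 to 5399 and 2175 to 5969 CPM), while the lines of Igf1 and Igfbp7 run in opposite directions.

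The share of reticular cells with at least 1 UMI was compared after each cell was thinned to 2000 UMIs, because median depth was 4492, 6628, 12750 and 7492 UMIs in reticular cells of CONT replicate 1, ABL replicate 1, CONT replicate 2 and ABL replicate 2. No cell was left out. All intervals in the text and plots cover counting error only. Igfbp3 was found in 36.1% of reticular cells of CONT replicate 1 and 17.5% of ABL replicate 1, and in 50.4% of CONT replicate 2 and 30.8% of ABL replicate 2. Hematopoietic cells, which should lack the gene and had median depths of 7201, 7560, 14600 and 11100 UMIs, held it in 0.522% to 3.07% of cells. Without thinning the reticular shares of Igfbp3 were 55.6%, 36.5%, 83.8% and 58.2%, in the same order of libraries and again lower in ABL.

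Igfbp5 was found in 99.2% and 95.4% of thinned reticular cells of CONT and ABL replicate 1, and in 99.6% and 86.5% of those of replicate 2, against 3.75% to 22.4% of hematopoietic cells. Igfbp4 was found in 92.6% to 98.7% of reticular cells in every library, against 13.8% to 29.6% of hematopoietic cells, so nearly all reticular cells held it in both conditions. Igf1 was found in 31.8% and 45.0% of reticular cells in CONT and ABL replicate 1 and in 53.9% and 48.7% in replicate 2, against 2.81% to 17.5% of hematopoietic cells. Igf1r was found in 12.2% to 12.97% of reticular cells and 4.48% to 13.5% of hematopoietic cells, and these ranges overlapped. Granulocyte-like cells held 32.15 to 104.1 CPM of Igf1r, so hematopoietic cells cannot serve as a background for that gene. Igfbp7 was found in 82.5% to 98.97% of reticular cells and 4.73% to 16.7% of hematopoietic cells, and Igfbp2 in 0.102% to 0.576% and 0% to 0.197%. At 2000 UMIs the shares of Igf1, Igf1r, Igfbp3, Igfbp4 and Igfbp5 had the same directions within each replicate as their CPM.

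Other genes of the IGF system were taken from a list of 55 genes, of which 48 were tested in reticular cells. Of the 41 tested that were not members, 1 rose and 2 fell, where 2.5% of all genes were called higher and 2.22% lower. These are too few to read against that background. Igf2, the other IGF ligand, stood at 25.4 CPM (CONT) and 193 CPM (ABL) in replicate 1, and 29.2 CPM (CONT) and 177 CPM (ABL) in replicate 2. It was thus higher in both ABL libraries by a wide margin, at a log2 fold change of 2.66 (SE 0.26, edgeR adjusted p = 1.41e-21). Among ligands it therefore differed from Igf1, which differed in opposite directions in the 2 replicates, although the difference between the 2 genes was not tested.

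All 6 genes of the growth hormone axis on the list were tested and 1 fell, where 2.22% of all genes were called lower. Their median log2 fold change was -0.72 and that of all genes -0.01, a description of the list with no test. Stat5a, a transducer of the growth hormone receptor, held 71.8 CPM (CONT) and 43.8 CPM (ABL) in replicate 1 and 102 CPM (CONT) and 20.6 CPM (ABL) in replicate 2, and fell by 1.57 on the log2 scale (SE 0.25, edgeR adjusted p = 3.07e-08). The Stat5a value was -0.85 in replicate 1 alone and -2.36 in replicate 2 alone, and the call was lost among cells with a Y-linked UMI and no Xist (-1.02, edgeR adjusted p = 0.131) and without the block. Ghr, the receptor itself, held 624, 502, 446 and 233 CPM, lower in ABL within each replicate, with a log2 fold change of -0.72 (edgeR adjusted p = 0.282). Cish, a STAT5 target that damps the pathway, had a log2 fold change of -0.73 (edgeR adjusted p = 0.068). The remaining called gene was Cd93, a surface partner of IGFBP7, which is also an endothelial gene, at 44.3, 23.8, 53.3 and 15.2 CPM and a log2 fold change of -1.44 (SE 0.25, edgeR adjusted p = 1.09e-06). The part of endothelial transcripts in the Cd93 result was not tested.

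The receptors, proteases and adaptors named next were not called in reticular cells. The log2 fold change was 0.29 for Igf2r, which clears IGF2, -0.21 for the insulin receptor gene Insr, and 0.32 for the adaptor Grb10. It was -0.19 for Pappa, the protease that cuts IGFBP4, 0.87 for its inhibitor Stc1 (edgeR adjusted p = 0.177) and 0.04 for the protease Htra1. It was 0.05 for Irs1 and -0.21 for Irs2, the docking proteins of the receptor, and Stc2 was too low to be tested, at 0 to 0.3 CPM.

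When all mesenchymal cells were summed, none of the 8 members was called, against 2.2% of 13721 genes, by the edgeR quasi-likelihood F test with Benjamini-Hochberg adjustment. Igfbp2 and Igfbp3 had an unadjusted p under 0.05 by edgeR, as did 2125 of the 13721 genes. DESeq2 called Igfbp3 and Igfbp5 lower, where it called 403 of all genes higher and 240 lower. Igfbp3 held 288 CPM (CONT) and 88.6 CPM (ABL) in replicate 1, and 555 CPM (CONT) and 51.1 CPM (ABL) in replicate 2, a log2 fold change of -2.61 (edgeR adjusted p = 0.051). Igfbp5 held 6106, 2907, 11540 and 1434 CPM in that order, a log2 fold change of -2.08 (edgeR adjusted p = 0.45). Igfbp4, at 2832, 3363, 2134 and 1349 CPM, was higher in ABL in replicate 1 and lower in replicate 2, with a log2 fold change of -0.25 against 1.05 in reticular cells. Stat5a (log2 fold change -2.27, edgeR adjusted p = 0.0496) and Cish (-2.25, edgeR adjusted p = 0.0309) were the genes of the list that fell here. Both calls were lost without the block, where edgeR called 0 of 13721 genes with 1206 at an unadjusted p under 0.05. In replicate 2 alone and replicate 1 alone Stat5a differed by -3.32 and -1.19, and over the libraries and replicates left out Cish ranged from -2.97 to -1.48.

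These sums moved with the make-up of the libraries. Reticular cells were 86.5% (CONT) and 56.2% (ABL) of mesenchymal cells in replicate 1, and 95.9% (CONT) and 19.2% (ABL) in replicate 2. In ABL replicate 2 they held 47.7% of the mesenchymal Igfbp4 UMIs and 62.9% of those of Igfbp3, but 6.50% of those of Igf1. The periosteal-like and fibroblast-like cells, 32.5% of mesenchymal cells there, held 81.6% of the Igf1 UMIs and 70.4% of the Igfbp6 UMIs. In ABL replicate 1 the reticular cells still held 64.2% of the Igf1 UMIs, and in CONT replicate 1 and 2 they held 70.9% and 88.9%. Igfbp6 of all mesenchymal cells stood at 44.9 CPM (CONT) and 45.1 CPM (ABL) in replicate 1 and 4.68 CPM (CONT) and 931 CPM (ABL) in replicate 2, so ABL replicate 2 set its fitted log2 fold change of 3.78 (edgeR adjusted p = 0.38). ABL replicate 2 and CONT replicate 2 shared a chemistry but differed in the make-up of their classes and in Xist, and the parts of these in the sums cannot be told apart.

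**Figure D3:**
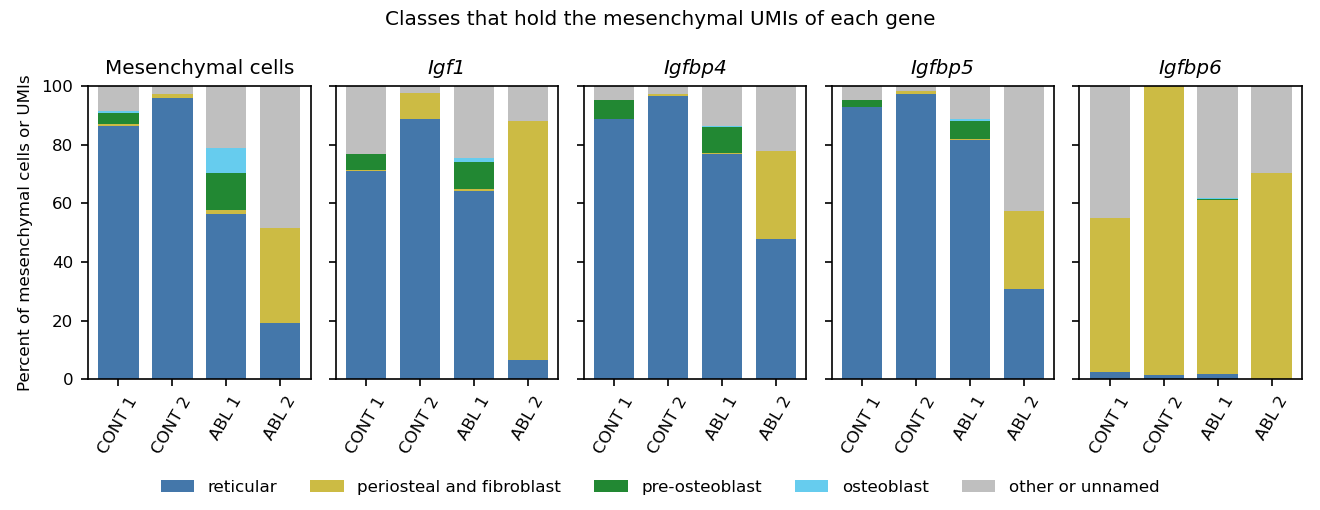
Stacked bars of the percent of mesenchymal cells, and of the mesenchymal UMIs of Igf1, Igfbp4, Igfbp5 and Igfbp6, that fell in each class, for each of the 4 libraries. In ABL replicate 2 reticular cells were 19.2% of cells and held 47.7% of Igfbp4 UMIs, whereas periosteal-like and fibroblast-like cells were 32.5% of cells and held 81.6% of Igf1 UMIs.

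Mesenchymal cells other than reticular cells were a mixture that differed between libraries. Their Igfbp4 stood at 1877 CPM (CONT) and 1488 CPM (ABL) in replicate 1, and 1423 CPM (CONT) and 791 CPM (ABL) in replicate 2, lower in ABL in both replicates where reticular cells were higher. The difference of the ABL effect between reticular and other mesenchymal cells was 1.52 log2 units for Igfbp4 (SE 0.35, edgeR adjusted p = 0.49 over 11883 genes). No member was called in this test against 0.00842% of genes. The 2 members Igfbp4 and Igfbp5 were at an unadjusted p under 0.05, as were 860 of the 11883 genes. Igfbp5 was at 0.70 log2 units (edgeR adjusted p = 0.66). Igf2 had the largest such difference of the genes named, at 4.74 log2 units (edgeR adjusted p = 0.448), and in other mesenchymal cells it was at 72.2 CPM (CONT) and 77.8 CPM (ABL) of replicate 1, but at 543 CPM (CONT) and 27.3 CPM (ABL) of replicate 2.

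No other mesenchymal class had 10 cells in all 4 libraries, so none was tested with the cells as called. Under the cell filter of the study alone, the periosteal-like and fibroblast-like cells numbered 66, 56, 27 and 522, and none of the 7 members tested was called among 5777 genes by edgeR, of which 8 rose and 9 fell. Igf1 of these cells was 952 CPM (CONT) and 628 CPM (ABL) in replicate 1, and 2343 CPM (CONT) and 1787 CPM (ABL) in replicate 2, a log2 fold change of -0.49 (edgeR adjusted p = 0.989). Igfbp6 held 916, 473, 186 and 2130 CPM in that order, in opposite directions in the 2 replicates.

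**Figure D4:**
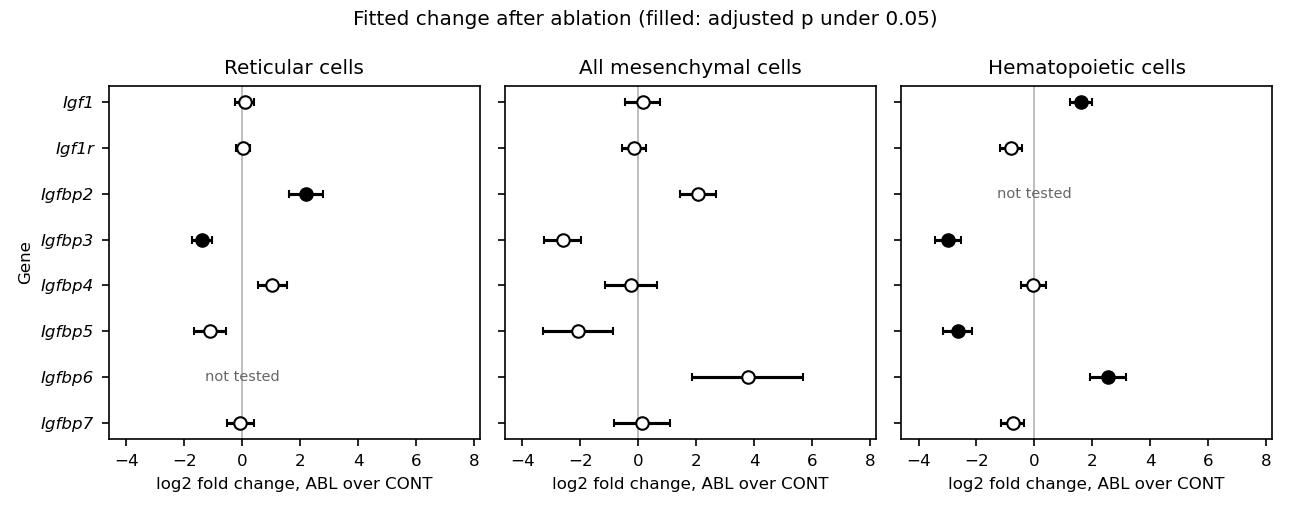
Log2 fold change of ABL against CONT with its SE for each member in reticular, all mesenchymal and hematopoietic cells, with filled points at an edgeR adjusted p under 0.05 and members removed by the low-count filter marked as not tested. Igfbp3 lies left of 0 in all 3 fits (-1.38, -2.61 and -2.99) and is filled in reticular and hematopoietic cells.

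Hematopoietic cells passed the sort in every library and give the level of the members in cells that mostly should lack them. Of the 7 members tested there, 2 were called higher and 2 lower by the edgeR quasi-likelihood F test, against 6.47% of 11938 genes, 3.86% higher and 2.61% lower. Igfbp3 differed by -2.99 log2 units (edgeR adjusted p = 3.15e-09) and Igfbp5 by -2.65 (edgeR adjusted p = 1.13e-05). Igfbp5 of hematopoietic cells stood at 199 CPM (CONT) and 86.8 CPM (ABL) in replicate 1 and 704 CPM (CONT) and 49.4 CPM (ABL) in replicate 2, and that of empty droplets at 1585, 1276, 6779 and 967 CPM in that order. Hematopoietic cells thus held 5.11% to 12.6% of the Igfbp5 level of the empty droplets, and 4.04% to 11.9% of their Igfbp3 level. Igfbp4 stood at 10.7% to 16.2% and Igfbp7 at 5.13% to 11.2% of that level, and Igfbp4 and Igfbp7 were not called (log2 fold changes -0.04 and -0.75). The part of free RNA in the Igfbp3 and Igfbp5 calls was not tested.

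Igf1r was above the range of these 4 genes in all 4 libraries and Igf1 in 3 of the 4. Igf1r stood at 57.7% (CONT) and 58.0% (ABL) of the empty-droplet level in replicate 1. In replicate 2 it stood at 143.9% (CONT) and 79.4% (ABL), and Igf1r was not called in hematopoietic cells. Hematopoietic cells held 13.7 CPM of Igf1 (CONT) and 54.7 (ABL) in replicate 1, and 38.7 (CONT) and 109 (ABL) in replicate 2, which was 18.3%, 35.4%, 11.5% and 36.1% of the empty-droplet level. The log2 fold change was 1.61 (SE 0.39, edgeR adjusted p = 0.00149). Monocyte-like and macrophage-like cells were 1.77% (CONT) and 20.5% (ABL) of hematopoietic cells in replicate 1. In replicate 2 the cells so named were 0 of 326 in CONT, where the exact binomial 95% limit is 1.13%, and 42.7% in ABL. Cells of this name held 41.7%, 84.6%, 0% and 87.5% of the hematopoietic Igf1 UMIs. The naming differed between libraries, so these shares are not like for like. In CONT replicate 2 a cluster of 80 cells named granulocyte had F13a1, Ms4a6c and Ccr2 among its leading genes. In CONT replicate 1 a cluster of 157 cells with Ccr2 and Ms4a6c was left unresolved. The class of ABL replicate 2 included 82 cells led by Acp5, while 20 such cells of ABL replicate 1 were left unresolved. The part of monocyte-like and macrophage-like cells in the hematopoietic Igf1 result was not tested. Cells of this name held 464 CPM of Igf1 in CONT replicate 1 and 301 CPM in ABL replicate 1. They were 36 cells with C1qa among their leading genes in that CONT library. In that ABL library they were 113 cells with C1qa and 44 with Ccr2 among theirs, so these levels are not like for like either. Igfbp6 was also called higher, at 2.53 log2 units (edgeR adjusted p = 0.00217), on values of 1.49 CPM (CONT) and 1.61 CPM (ABL) in replicate 1 and 0 CPM (CONT) and 20.3 CPM (ABL) in replicate 2. ABL replicate 2 thus decided it, and with 0 UMIs in CONT replicate 2 the fitted size depends on the prior count.

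**Figure D5:**
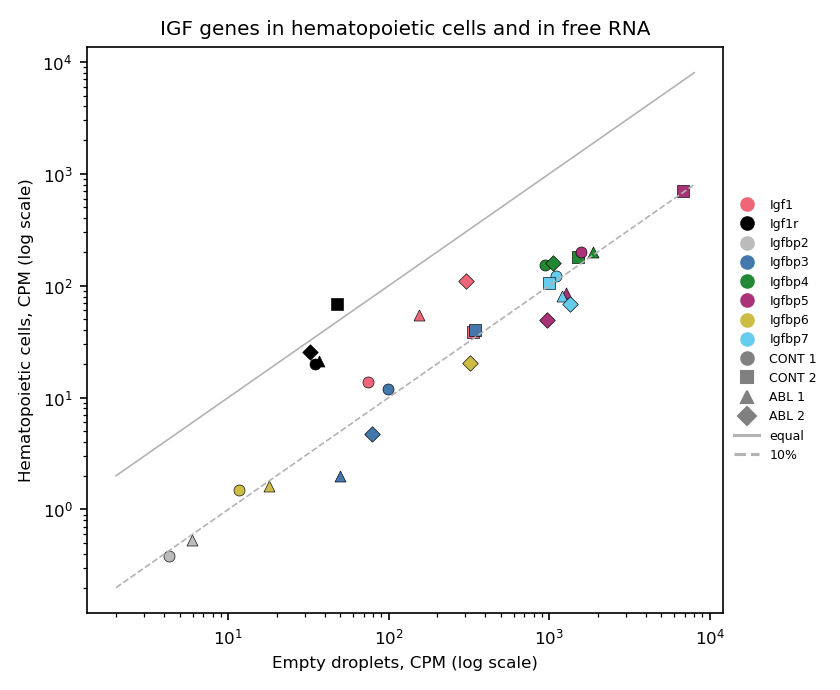
CPM of each member in hematopoietic cells against CPM in empty droplets of the same library, both axes log10, with lines for equal levels and for 10% of the empty-droplet level. Points of Igfbp3, Igfbp4, Igfbp5 and Igfbp7 lie near the 10% line (4.04% to 16.2%). The ABL points of Igf1 lie at 35.4% and 36.1% and the points of Igf1r at 57.7% to 143.9%, and members at 0 are not drawn.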

How the data were processed

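Droplet single-cell RNA-seq counts of 4 libraries, 2 replicates each of CONT and ABL, were analysed. The authors deposited raw UMI counts per gene and barcode, made with Cell Ranger on mm10 with added reporter sequences, and Seurat is the other tool in the submitters' processing notes; Cell Ranger versions are not given here. No sample column was left unused (0 columns). The genes and the pathway list were chosen with earlier results of these data known.

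Cells passed the filter of the study (minimum 500 genes and maximum 20% mitochondrial UMIs in version 2, minimum 1000 genes and maximum 15% in version 3) and a UMI minimum set at the 99th percentile of the 3000 deepest barcodes divided by 10. Empty droplets were barcodes of up to 300 UMIs. Total counts per library were 22889380 to 44784072 UMIs. Doublets called by Scrublet in scanpy 1.11.5 (0.0832% to 2.27% of cells) were kept, and leaving them out was an alternative. Cells were clustered in Seurat 5.3.0 (2000 variable genes, 30 components, resolution 0.8), and mesenchymal cells were integrated within each replicate and clustered again without the members, the markers and the transgenes. Clusters were named from marker lists by a score of at least 0.25 and a margin of 0.1, rules set after the data had been seen.

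Counts were summed per library and class and tested in edgeR 4.0.16 (R 4.3.3; TMM, filterByExpr, quasi-likelihood F test, replicate as a block, adjusted p threshold 0.05), with DESeq2 1.42.0 as an alternative. The fit was tested on simulated data. The block follows the study, in which the left femur served as the control of the ablated right femur. Same-numbered libraries also share a chemistry. In replicate 2 an Xist UMI was in 71.9% of mesenchymal cells of CONT and 0.0553% of those of ABL. That replicate therefore cannot be taken as the 2 femurs of the same mice. Its ablation difference cannot be told apart from the difference in sex-linked transcripts. Replicate 1 has the same limit, with an Xist UMI in 49.9% (CONT) and 81.4% (ABL) of mesenchymal cells. A Y-linked UMI was in 29.8% (CONT) and 15.75% (ABL) of them. Deviations of CONT and ABL replicate 1 from their group means correlated over genes at 0.735 for reticular and 0.443 for all mesenchymal cells. With 2 libraries per group each deviation is set by the difference between the replicates, which also differ in chemistry. The correlation therefore cannot show that the femurs came from the same mice. Named genes were the 8 members, 11 fixed genes of the pathway list, the 8 genes of that list with the lowest adjusted p among those called, and 3 genes most like each member. Intervals for levels are exact Poisson and those for shares exact binomial (95%).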

Additional observations from a re-analysis of the deposited data

Results flagged for a closer look

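Igfbp4 differed in direction between cell groups under the same contrast. In reticular cells ABL exceeded CONT by 0.83 log2 units in replicate 1 and 1.46 in replicate 2, while in the other mesenchymal cells ABL differed from CONT by -0.34 and -0.85. Every library pair of one group thus moved against every pair of the other. The interaction test gave 1.52 log2 units (SE 0.35) with an edgeR adjusted p of 0.49 over 11883 genes, so the difference did not pass the threshold, and it passed without the filter on low counts (edgeR adjusted p = 0.0187). The fit without that filter called 182 genes higher and 27 lower of 19560, where the main fit called 1 of 11883. The other mesenchymal cells were of different classes in each library, and the part of that make-up in the difference was not tested.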

How the results depend on the processing

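The number of members called in reticular cells was 2. It was 0 with no replicate block, in tdTomato-positive cells, in cells with a Y-linked UMI and no Xist, and at clustering resolution 1.5. Calls over all genes fell too, from 283 higher and 252 lower of 11340 in the main fit. They were 128 and 87 of 11276 in tdTomato-positive cells. They were 96 and 65 of 9578 in cells with a Y-linked UMI, and 122 and 72 of 11156 at resolution 1.5. The number was 1 of 6 members tested under the filter of the study alone, after subtraction of free RNA, after thinning and with all variable genes. Igfbp2 was too low to be tested in these settings and in cells with a Y-linked UMI. Leaving out 1 library in turn, without the block and chosen after seeing the data, left 1 library in a condition, so only effect sizes are given for those fits. Without the replicate block no gene at all was called in reticular cells, so each call there rests on the pairing of same-numbered libraries. In reticular cells Igfbp3 kept its direction under all alternatives run and stayed past the threshold in 10 of 14, with a range of -1.41 to -1.22 (-2.23 to -0.67 on leaving out a library or replicate), Igfbp2 in 5 of 9, Igf2 and Cd93 in 13 of 14 and Stat5a in 12 of 14 (-2.36 to -0.85 on leaving out a library or replicate). In all mesenchymal cells, where 0 members were called, DESeq2 and thinning gave 2, and the filter of the study, doublet removal and tdTomato-positive cells gave 1. Calls over all genes were also above the 227 higher and 75 lower of the main fit. They were 403 and 240 with DESeq2, and 357 and 147 after thinning. They were 365 and 169 under the filter of the study, 340 and 152 without doublets, and 309 and 134 in tdTomato-positive cells. Stat5a stayed past the threshold there in 6 of 10 and Cish in 7 of 10, neither without the block. In all mesenchymal cells without ABL replicate 1, a fit with no block and 1 ABL library, Igfbp6 differed by 5.34 log2 units. In hematopoietic cells 4 members were called and 0 without the replicate block, where 0 of all 11938 genes were called. In the interaction test 0 were called and 1 without the low-count filter, where 182 of all 19560 genes were called higher and 27 lower. Members with a higher share of cells with a UMI in both ABL libraries numbered 5, against 3 at 1000 UMIs and 2 without thinning. No other mesenchymal class could be fitted with the cells as called, and the periosteal-like and fibroblast-like fit under the filter of the study was chosen after seeing the data.

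Some directions turned (log2 fold changes). In reticular cells Igf1 was -0.06 with no replicate block, Igf1r -0.02 without integration and -0.06 after thinning, and Irs1 -0.04 in cells with a Y-linked UMI and -0.23 after thinning. In all mesenchymal cells Igfbp4 was 0.10 after thinning and Igfbp7 -0.21 in cells with a Y-linked UMI, and in hematopoietic cells Igfbp4 was 0.01 with no replicate block. Leaving out a replicate or library moved the reticular values of Igf1 from -0.62 to 0.79, Igf1r from -0.11 to 0.17, Igfbp7 from -0.69 to 0.57, Insr from -0.76 to 0.40, Pappa from -0.85 to 0.54, Stc1 from -0.02 to 1.69, Htra1 from -0.34 to 0.41, Irs1 from -0.13 to 0.21 and Irs2 from -1.27 to 0.66. It moved the mesenchymal values of Igf1 from -0.75 to 1.01, Igfbp4 from -0.81 to 0.32, Igfbp6 from -0.07 to 7.63 and Igfbp7 from -0.81 to 1.07, the hematopoietic values of Igfbp4 from -0.33 to 0.25 and Igfbp6 from -0.04 to 8.35, and the interaction of Igf1r from -0.10 to 0.67, Igfbp3 from -1.80 to 0.65 and Igfbp7 from -1.08 to 0.22. The cause was not tested. Over all values of single genes, 45 turned in direction. Another 21, of genes called in the main fit, kept their direction in 1 replicate alone, where no p-value exists. The other values are not totalled by call, because they include fits with 1 library in a condition. The 2 replicates limit every test, and counts of Igfbp2 and Igfbp6 limit those genes.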

Other observations

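Across 34 class sums from 18 classes, each of at least 30 cells, the genes whose log2 CPM was most like that of each member were read from 2706 candidates. The sums share libraries and depth, so these correlations are descriptions. Igfbp2 was most like the endothelial genes Cldn5 (Pearson r = 0.955), Plvap (0.941) and Cdh5 (0.923), and Igfbp6 was most like Meg3 (0.941), Clec3b (0.900) and Comp (0.884). Igfbp5 followed Gpx3 (0.915), C1ra (0.915) and Serping1 (0.913), and Igfbp4 followed Angptl4 (0.896), Fstl1 (0.892) and Col4a2 (0.889). Igfbp7 followed Ptrf (0.955), Pam (0.924) and Fermt2 (0.922), and Igfbp3 followed Nid1 (0.822), Adgrf5 (0.818) and Plpp3 (0.808). Igf1 was most like Pdlim4 (0.829), Adam9 (0.814) and Itgb5 (0.813), and Igf1r most like Ndel1 (0.866), Vcl (0.834) and Ckap4 (0.809). Between members, r was highest for Igfbp4 with Igfbp7 (0.78) and with Igfbp5 (0.776), and was 0.0198 for Igfbp3 with Igfbp6.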
